A study of Mus musculus with 40 samples.

Results

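The measurement described here is the strain by allergen interaction in mouse lung 24 h after aspiration of allergen. It is the allergen minus PBS difference in C3H lungs, minus the same difference in AJ lungs. It was computed for each of 12393 genes on the scale log2(intensity + 16), with the brightest probe set standing for a gene. A value below 0 means that the allergen difference was lower in C3H lungs than in AJ lungs, and a value above 0 that it was higher. Of the 40 arrays of the series, 20 enter this interaction. They are 5 C3H allergen lungs, 5 C3H PBS lungs, 5 AJ allergen lungs and 5 AJ PBS lungs, all at 24 h, and the other 20 arrays are the same 4 groups at 6 h.

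The sample titles name the allergen as OVA (ovalbumin), while the descriptions name HDM (house dust mite), so it is called allergen here. Strains were taken from the titles, since the descriptions of all 40 arrays name the AJ strain, which they call hyperresponsive. All animals received PBS, with or without allergen in it. The labels give no age, sex, substrain or sensitisation schedule, and they do not say that each numbered array is a separate mouse, so the p-values measure the spread between these arrays, which may be technical. Hc, which encodes complement component C5, separated the strain labels: it read 763 to 1142 intensity units in C3H allergen lungs, 857 to 1115 in C3H PBS lungs, 375 to 527 in AJ allergen lungs and 207 to 351 in AJ PBS lungs. The C3H minus AJ difference in PBS lungs was 1.63 ± 0.14 on the log2 scale (SE, n = 5 each; limma adjusted p = 4.59e-10; 1.93% of all genes passed in this comparison), and its C3H and AJ ranges did not overlap. Its interaction was -0.64 ± 0.20 (limma adjusted p = 0.152). The arrays had been scaled to a common trimmed mean of about 150.04, and the median intensity of the 24 h arrays lay between 67.3 and 77.3. The number of arrays limits the precision.

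As background, inhaled allergen in a sensitised lung draws eosinophils, T cells and monocytes into the tissue, turns airway secretory cells into mucus-making goblet cells and switches macrophages to an alternatively activated state. The type 2 cytokines interleukin-4, interleukin-5 and interleukin-13 and the CC chemokines drive much of this. A/J mice are a classic strain with strong airway constriction after such challenge, and C3H mice are widely used as a contrasting strain. A whole lung also holds airway epithelium, vessels and matrix, and, depending on dissection, heart muscle and fat. In such bulk tissue, fewer cells of a type and less RNA per cell cannot be told apart.

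The interaction passed the threshold for 57 genes, 28 higher and 29 lower in C3H than in AJ (limma, Benjamini-Hochberg adjusted p under 0.05, two-sided, over all genes). That is 0.46% of the genes tested, with 0.226% higher and 0.234% lower, and the median interaction over all genes was -0.04. The allergen response itself passed for 402 genes in C3H lungs (3.24%) and 971 genes in AJ lungs (7.84%). For the interaction, 1558 genes had an unadjusted p under 0.05. For the 29 lower genes the median allergen difference was 0.06 in C3H lungs and 1.21 in AJ lungs, and the AJ difference was above 0 for all 29. For the 28 higher genes the medians were 0.36 in C3H lungs and -0.71 in AJ lungs, and the AJ difference was above 0 for 2 of the 28. With every array centred on its median, 50 genes passed, 32 higher and 18 lower, and 45 of the 57 were among them.

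**Figure D1:**
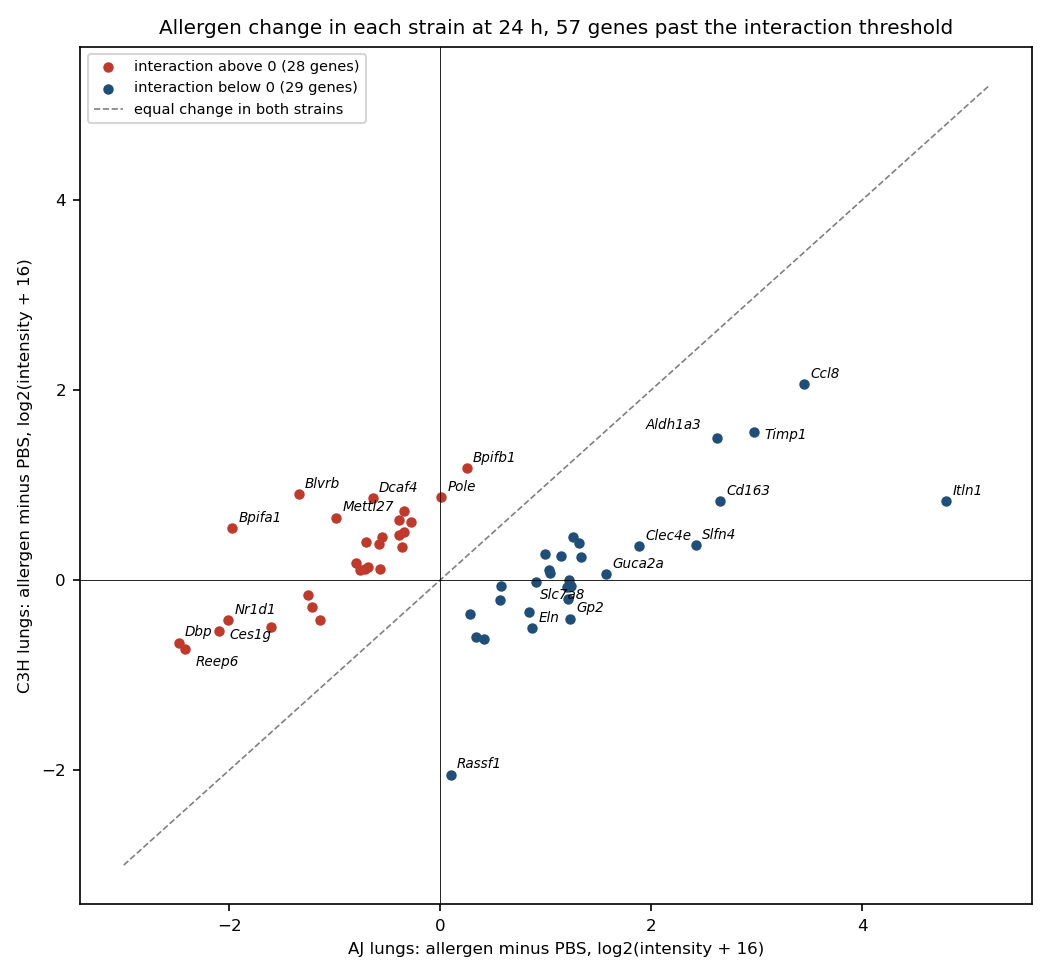
Allergen minus PBS difference at 24 h in C3H lungs (vertical axis) against the same difference in AJ lungs (horizontal axis), log2(intensity + 16), for the 57 genes past the interaction threshold. Each point is a gene, points under the dashed line of equal change have an interaction below 0, and all 29 of those lie right of 0 on the AJ axis, with Itln1 farthest out at 4.80.

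The count depended on single arrays. Leaving out 1 of the 20 arrays at a time gave between 19 and 177 genes. Without C3H allergen replicate 4 the count was 177, and it included all 57. It was 19 without C3H allergen replicate 1, 30 without C3H allergen replicate 3 and 34 without C3H allergen replicate 5. It was 25, 30, 36 and 31 without C3H PBS replicates 1, 3, 4 and 5 in turn. Without AJ allergen replicates 1, 2 and 5 it was 28, 23 and 37, and without AJ PBS replicates 1 and 5 it was 34 and 20. None of the 57 changed sign in any of these fits, which their selection by a large interaction in the same arrays made likely beforehand.

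C3H allergen replicate 4 also stood apart in genes of heart and skeletal muscle and of fat. The mean log2 level of 29 cardiac and skeletal muscle genes was 6.49 in that array and 8.58 to 8.73 in the other C3H allergen lungs. It was 7.93 to 8.58 in C3H PBS lungs, 6.51 to 7.55 in AJ allergen lungs and 7.99 to 9.05 in AJ PBS lungs. The summed intensity of these genes ran from 3788 to 18773 in C3H allergen lungs, from 10187 to 15328 in C3H PBS lungs, from 3733 to 12418 in AJ allergen lungs and from 10440 to 23221 in AJ PBS lungs. None of the 29 genes was at 0 in any array. With the levels of the muscle list and of a 12-gene adipose list as covariates, 9 of the 57 genes were past the threshold, namely Dbp, Mettl27, Ces1g, Bpifb1, Itih2, Itln1, Cd163, Timp1 and Slc7a8, and no other gene joined them. The size under the covariates had a median of 91.2% of the size without them over the 57 genes (range 62.7% to 127%). Of the 48 genes no longer past the threshold, 23 kept at least 90% of their size, among them Itgam at -0.97, Arntl at -0.97, Angptl4 at -1.40 and Fst at -1.29, and 25 had less. The part of muscle and fat in the result was not otherwise tested.

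Airway secretory genes held the largest interaction. Itln1, which encodes intelectin-1, a sugar-binding lectin secreted by goblet cells, was low in C3H lungs with and without allergen and bright in AJ lungs with allergen. It read 26.8, 38.7, 10.6, 25.9 and 5.16 intensity units in C3H allergen lungs, against 2.71, 1.86, 3.07, 11.3 and 1.95 in C3H PBS lungs. In AJ allergen lungs it read 823, 908, 742, 744 and 869 units, against 13.3, 4.26, 42.6, 18.4 and 3.82 in AJ PBS lungs. The C3H groups overlapped and the AJ groups did not, and every AJ allergen lung was above every C3H allergen lung. The allergen difference was 0.83 ± 0.26 in C3H lungs (SE, n = 5 each; limma adjusted p = 0.0697) and 4.80 ± 0.26 in AJ lungs, an interaction of -3.97 ± 0.37 (limma adjusted p = 8.13e-09). Mouse strains can carry further near-identical intelectin genes, and which copy the probe set measured is uncertain.

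Few other mucus genes passed with it. Of 23 measured members of a mucus and goblet cell list, Itln1 was lower and Bpifb1 higher, and 21 did not pass, with a list median of -0.24 against -0.04 for all genes. Among all genes 0.234% were lower and 0.226% higher. Within each strain the list moved in both: 14 of the 23 rose with allergen in C3H lungs, where 2.1% of all genes rose, and 14 in AJ lungs, where 4.56% of all genes rose. Clca1, a protein that goblet cells secrete, had 2943, 3707, 1138, 2596 and 976 units in C3H allergen lungs, against 4.04, 0.948, 1.65, 85.2 and 1.79 in C3H PBS lungs. It had 5221, 3581, 4365, 4023 and 3933 units in AJ allergen lungs, against 16, 14, 192, 11.8 and 11.7 in AJ PBS lungs. Allergen and PBS lungs were apart in both strains. Its allergen differences were 6.30 ± 0.55 in C3H lungs and 6.60 ± 0.55 in AJ lungs, and the interaction was -0.30 ± 0.78 (SE; limma adjusted p = 0.918), an estimate whose error leaves room for a sizeable difference either way. Its sign turned with the added constant, at 0.99 with 1 added and -0.70 with 64.

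Muc5ac, the main gel-forming mucin of goblet cells, read 57.7, 96.7, 13.8, 121 and 17.3 units in C3H allergen lungs, against 10.1 to 16.3 in C3H PBS lungs. In AJ allergen lungs it read 190, 252, 174, 197 and 147 units, against 11.1 to 19.1 in AJ PBS lungs. The 5 C3H allergen values spread widely and were all below the AJ allergen values. Its interaction was -1.58 ± 0.45 and did not pass (limma adjusted p = 0.103). With 1 of the 20 arrays left out at a time, Muc5ac passed once, without C3H allergen replicate 4 (adjusted p = 0.0261).

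Bpifb1 and Bpifa1, both of the PLUNC family of secreted airway defence proteins, were on the positive side. Bpifb1 rose in C3H lungs to 902 to 1540 units with allergen, against 423 to 574 with PBS, and the groups did not overlap. In AJ lungs it had 806 to 1155 units with allergen and 685 to 1075 with PBS, overlapping. The interaction was 0.93 ± 0.23 (limma adjusted p = 0.047), and it passed in 5 of the 20 fits that left out an array and not with quantile normalization (adjusted p = 0.0763). The strains already differed with PBS, by -0.77 ± 0.16 (C3H minus AJ; limma adjusted p = 0.0031).

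Bpifa1 read 2317, 4050, 2922, 1538 and 1938 units in C3H allergen lungs, against 2314, 2348, 1140, 1429 and 1356 in C3H PBS lungs. It read 112, 443, 452, 362 and 782 units in AJ allergen lungs, against 1221, 704, 1719, 3403 and 1429 in AJ PBS lungs. All 5 C3H allergen lungs were above all 5 AJ allergen lungs, while the C3H groups overlapped and so did the AJ groups. The interaction was 2.52 ± 0.58 (limma adjusted p = 0.0366), from a C3H difference of 0.55 ± 0.41 and an AJ difference of -1.97 ± 0.41. It was past the threshold in 9 of the 20 fits that left out an array, where the adjusted p ranged from 0.017 to 0.0758.

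Club cells are the nonciliated secretory cells that line mouse airways. In a club cell list of 13 measured genes Bpifa1 and Reep6 were higher in the interaction and none lower, with a list median of 0.26. Over all genes 0.226% were higher. With allergen, none of the 13 passed in either direction in C3H lungs, and in AJ lungs 6 fell (Scgb3a2, Cyp2f2, Ces1d, Bpifa1, Gabrp and Reep6), where 3.28% of all genes fell. The mean log2 level of the list was 9.79 to 10.06 in C3H allergen lungs, 9.87 to 10.07 in C3H PBS lungs, 9.43 to 9.82 in AJ allergen lungs and 10.03 to 10.26 in AJ PBS lungs, so the AJ groups were apart. Reep6, an endoplasmic reticulum shaping protein, had 60.5 to 104 units in C3H allergen lungs, against 121 to 178 in C3H PBS lungs, and 16.4 to 53.4 in AJ allergen lungs, against 203 to 267 in AJ PBS lungs. Its interaction was 1.69 ± 0.38 (limma adjusted p = 0.0327).

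Gp2, a membrane glycoprotein of antigen-sampling epithelial cells, had an interaction of -1.63 ± 0.39 (limma adjusted p = 0.0425), with 27.6 to 44.7 units in C3H allergen lungs, 43.5 to 61.6 in C3H PBS lungs, 65.3 to 127 in AJ allergen lungs and 18.0 to 47.4 in AJ PBS lungs. Guca2a, which encodes the peptide guanylin, had an interaction of -1.52 ± 0.29 (adjusted p = 0.0101). It read 44.0, 82.0, 58.3, 101 and 27.5 units in AJ allergen lungs and no more than 12.4 in any lung of the other 3 groups. Aldh1a3, a retinaldehyde dehydrogenase that makes retinoic acid, rose in both strains, to 10.4 to 58.9 units in C3H allergen lungs and 67.0 to 131 in AJ allergen lungs, against at most 6.19 in PBS lungs of either strain. Its interaction was -1.12 ± 0.27 (adjusted p = 0.0482), which passed in 3 of the 20 fits without an array. Gp2 passed in 2 of those 20.

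**Figure D2:**
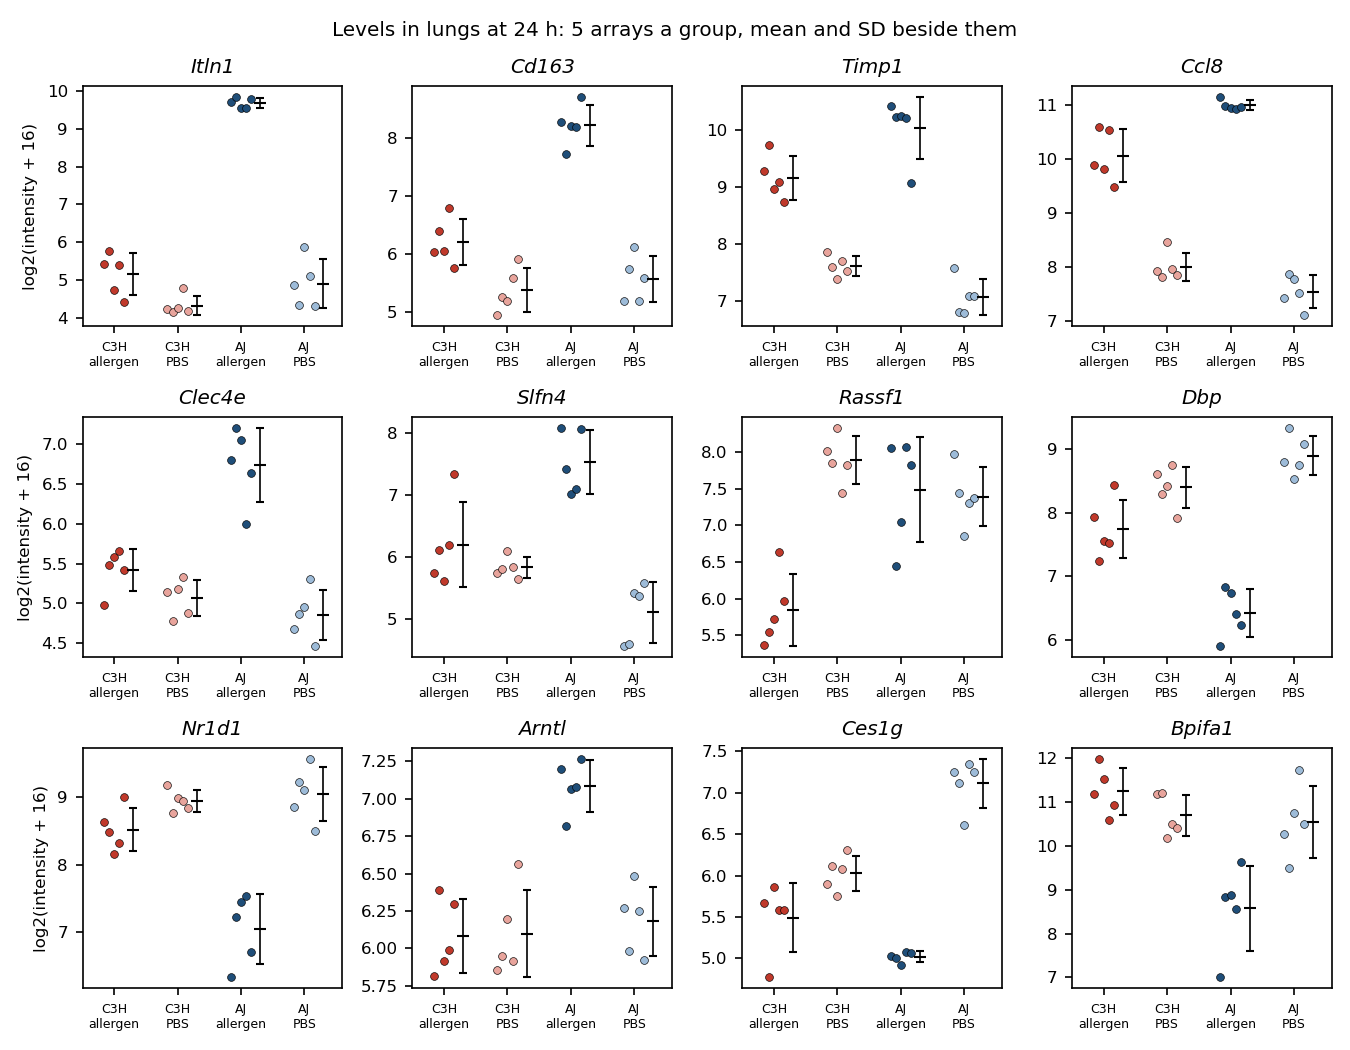
Level at 24 h, log2(intensity + 16), of 12 genes in C3H allergen, C3H PBS, AJ allergen and AJ PBS lungs; each point is an array and the bar beside it is the mean with its SD (n = 5). The AJ allergen and AJ PBS points overlap for Rassf1, which is low in the C3H allergen lungs, and for Bpifa1. The 12 genes were picked from those past the interaction threshold, which favours separated groups.

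Among macrophage genes, Cd163 and Itgam were lower in the interaction. Cd163, the haemoglobin scavenger receptor of tissue macrophages, read 49.2, 68.3, 50.1, 94.5 and 38.0 units in C3H allergen lungs, against 14.6, 22.1, 20.2, 32.0 and 44.1 in C3H PBS lungs. In AJ allergen lungs it read 293, 194, 279, 275 and 402 units, against 20.3, 37.5, 53.0, 20.5 and 32.1 in AJ PBS lungs. It rose in both strains, by 0.83 ± 0.20 in C3H lungs (SE, n = 5 each; limma adjusted p = 0.0163) and by 2.65 ± 0.20 in AJ lungs. The interaction was -1.82 ± 0.29 (limma adjusted p = 0.000858), and it was past the threshold in all 32 alternatives run.

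Itgam, the integrin chain CD11b of myeloid cells, had 25.7 to 43.9 units in C3H allergen lungs, 27.2 to 34.7 in C3H PBS lungs, 70.1 to 113 in AJ allergen lungs and 24.7 to 46.0 in AJ PBS lungs. The AJ allergen lungs stood above the other 3 groups, which overlapped, and the interaction was -0.96 ± 0.21 (limma adjusted p = 0.0269). Cd33, a sialic acid-binding receptor of myeloid cells, had an interaction of -1.18 ± 0.25 (adjusted p = 0.0195), and Ms4a8a, a membrane protein of the MS4A family, one of -0.92 ± 0.22 (adjusted p = 0.0394). Tnfrsf1b, the second receptor for tumour necrosis factor, had the smallest of these at -0.64 ± 0.14 (adjusted p = 0.0269), with 116 to 156 units in C3H allergen lungs and 202 to 246 in AJ allergen lungs. A second, dimmer probe set for Tnfrsf1b gave 0.14 ± 0.26.

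Slc7a8, an exchanger of neutral amino acids, read 37.7, 35.0, 35.2, 54.1 and 29.8 units in C3H allergen lungs, against 34.0, 32.8, 32.0, 38.4 and 53.8 in C3H PBS lungs. It read 70.6, 97.1, 77.6, 78.6 and 99.0 units in AJ allergen lungs, against 26.8, 36.4, 30.0, 20.9 and 21.9 in AJ PBS lungs. The C3H groups overlapped and the AJ groups were apart, giving an interaction of -1.22 ± 0.21 (limma adjusted p = 0.00371). Slc7a2, the arginine transporter that supplies arginase and nitric oxide synthase, had an interaction of -0.93 ± 0.22 (adjusted p = 0.0414, past the threshold in 7 of the 20 fits that left out an array). Npl, a lyase that breaks down sialic acid, had one of -0.80 ± 0.15 (adjusted p = 0.00924), with increases of 0.46 ± 0.11 in C3H lungs and 1.26 ± 0.11 in AJ lungs.

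Counts over the macrophage lists were small. Of 25 measured members of a macrophage, monocyte and dendritic cell list, 2 were lower (Cd163 and Itgam) and 0 higher, with a median of -0.21. Over all genes 0.234% were lower. With allergen, 10 of the 25 rose in C3H lungs, where 2.1% of all genes rose, and 14 in AJ lungs, where 4.56% did, and none fell in either. Of 16 genes of alternatively activated and tissue macrophages, Cd163 was lower and none higher, with a median of -0.44. Of that list 7 rose in C3H lungs, among them Arg1, Retnla, Chil3 and Mrc1, and 10 rose and 1 fell in AJ lungs.

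Receptors that sense microbes and damaged cells also leaned to the negative side. Of 22 measured innate sensors 2 passed, both lower, the median was -0.36, and 1 of the 22 values was above 0. Over all genes 0.234% were lower, and the median was -0.04. Clec4e, the C-type lectin Mincle, read 15.5, 28.5, 31.8, 34.4 and 26.8 units in C3H allergen lungs, against 11.5 to 24.2 in C3H PBS lungs. In AJ allergen lungs it read 95.4, 131, 116, 48.1 and 83.1 units, against 6.01 to 23.5 in AJ PBS lungs, and all 5 were above the C3H allergen lungs. The interaction was -1.53 ± 0.37 (limma adjusted p = 0.0425), and a second probe set gave -0.28 ± 0.37.

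Clec4d, its partner lectin, had 42.6 to 84.1 units in C3H allergen lungs, 37.4 to 53.3 in C3H PBS lungs, 118 to 181 in AJ allergen lungs and 42.6 to 56.1 in AJ PBS lungs. Its interaction was -1.09 ± 0.26 (limma adjusted p = 0.0446). Clec4e passed in 4 and Clec4d in 5 of the 20 fits without an array. Tlr4, the sensor of bacterial lipopolysaccharide, had an interaction of -0.13 ± 0.19 (adjusted p = 0.831), with 71.3 to 105 units in C3H allergen lungs, 61.0 to 87.6 in C3H PBS lungs, 81.5 to 104 in AJ allergen lungs and 59.1 to 81.0 in AJ PBS lungs.

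Slfn4, a Schlafen family gene of myeloid cells, had 37.5, 53.0, 32.9, 57.4 and 145 units in C3H allergen lungs, against 34.2 to 52.7 in C3H PBS lungs. It had 254, 154, 113, 120 and 250 units in AJ allergen lungs, against 7.57 to 31.7 in AJ PBS lungs. The C3H groups overlapped, and C3H allergen replicate 5 reached into the AJ allergen range. The interaction was -2.05 ± 0.44 (limma adjusted p = 0.0209).

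Neutrophil markers had the lowest median of all lists at -0.54, with 2 of 15 measured members above 0 and none past the threshold. With allergen, Lcn2 rose in C3H lungs, where 2.1% of all genes rose. In AJ lungs 6 of the 15 rose (S100a8, S100a9, Lcn2, Csf3r, Fpr2 and Il1r2), where 4.56% of all genes rose. The summed intensity of the list was 3036 to 4539 in C3H allergen lungs, 1837 to 2253 in C3H PBS lungs, 5218 to 10338 in AJ allergen lungs and 1676 to 2485 in AJ PBS lungs. The ranges of the C3H and AJ allergen lungs thus did not overlap, while those of the PBS lungs did. This level moved beside the myeloid genes above, and its part in their interaction was not tested.

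Of 31 measured chemokines, 12 rose and 1 fell with allergen in C3H lungs, where 2.1% of all genes rose and 1.15% fell. In AJ lungs 18 rose and none fell, where 4.56% of all genes rose and 3.28% fell. In the interaction Ccl8, Ccl4 and Pf4 were lower and 0 higher, where 0.234% of all genes were lower, with a list median of -0.31. Ccl8, which attracts eosinophils, monocytes and type 2 T cells, had 924, 1527, 884, 1461 and 692 units in C3H allergen lungs, against 226, 207, 334, 231 and 213 in C3H PBS lungs. It had 2242, 2004, 1935, 1929 and 1964 units in AJ allergen lungs, against 155, 217, 203, 166 and 121 in AJ PBS lungs. Allergen and PBS lungs were apart in both strains, and the AJ allergen lungs were all above the C3H ones. The increases were 2.06 ± 0.20 in C3H lungs and 3.45 ± 0.20 in AJ lungs, an interaction of -1.39 ± 0.28 (SE, n = 5 each; limma adjusted p = 0.0149).

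Ccl4, a macrophage inflammatory protein that recruits monocytes and lymphocytes, had 72.0, 135, 110, 171 and 91.2 units in C3H allergen lungs, against 129, 126, 128, 123 and 86.4 in C3H PBS lungs. It had 232, 327, 272, 278 and 233 units in AJ allergen lungs, against 117, 115, 120, 104 and 68.5 in AJ PBS lungs. The AJ allergen lungs stood above all others, and the interaction was -1.31 ± 0.29 (limma adjusted p = 0.0327). Pf4, platelet factor 4, which megakaryocytes and some macrophages make, had 308 to 502 units in C3H allergen lungs, 252 to 382 in C3H PBS lungs, 597 to 911 in AJ allergen lungs and 280 to 382 in AJ PBS lungs. Its interaction was -0.90 ± 0.21 (adjusted p = 0.0394), and it passed in 7 of the 20 fits that left out an array.

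The type 2 cytokines themselves gave no call. Il4 had an interaction of -0.18 ± 0.24 (limma adjusted p = 0.815), Il5 of 0.25 ± 0.26 (0.756) and Il13 of -0.10 ± 0.29 (0.929). All 3 were dim, with no value above 55.8 units in any 24 h lung, which limits what these probe sets can show. Ccl11, eotaxin-1, which draws eosinophils, rose in both strains, to 125 to 363 units in C3H allergen lungs against 22.7 to 42.7 in C3H PBS lungs, and to 244 to 457 in AJ allergen lungs against 24.8 to 45.7 in AJ PBS lungs. Its interaction was -0.77 ± 0.39 (adjusted p = 0.403). Of 30 measured type 2 response genes Ccl8 alone passed, as lower, where 0.234% of all genes were lower, and the median was -0.30. With allergen, 11 of the 30 rose in C3H lungs, where 2.1% of all genes rose, and 15 in AJ lungs, where 4.56% did.

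Genes of the extracellular matrix were lower in 3 of 36 measured members (Timp1, Eln and Col5a2) and higher in 0, with a median of -0.33. Over all genes 0.234% were lower. Timp1, the secreted inhibitor of matrix metalloproteinases, read 604, 843, 482, 528 and 408 units in C3H allergen lungs, against 215, 177, 150, 191 and 168 in C3H PBS lungs. In AJ allergen lungs it read 1363, 1186, 1197, 1178 and 524 units, against 175, 95.1, 94.3, 119 and 119 in AJ PBS lungs. It rose in both strains, and 4 of the 5 AJ allergen lungs were above every C3H allergen lung. The increases were 1.55 ± 0.20 in C3H lungs and 2.98 ± 0.20 in AJ lungs, an interaction of -1.42 ± 0.28 (limma adjusted p = 0.0101), which passed in all 32 alternatives run.

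Eln, elastin, had 385 to 719 units in C3H allergen lungs, 570 to 1008 in C3H PBS lungs, 540 to 1631 in AJ allergen lungs and 335 to 823 in AJ PBS lungs, and allergen and PBS lungs overlapped in both strains. Its interaction was -1.37 ± 0.31 (limma adjusted p = 0.0341). A second, dimmer probe set for Eln gave -0.67 ± 0.91, and Eln did not pass with the mean of its probe sets. Col5a2, a chain of fibrillar collagen V, had an interaction of -0.72 ± 0.17 (adjusted p = 0.0366), with a difference of 0.27 ± 0.12 in C3H lungs that did not pass and an increase of 0.99 ± 0.12 in AJ lungs. With PBS it was already 0.64 ± 0.12 higher in C3H than in AJ lungs (adjusted p = 0.000694). Fst, follistatin, which binds activin, had 35.7 to 57.9 units in C3H allergen lungs, 36.3 to 62.5 in C3H PBS lungs, 94.1 to 292 in AJ allergen lungs and 55.6 to 87.0 in AJ PBS lungs, an interaction of -1.27 ± 0.29 (adjusted p = 0.0341). Fst passed in 9 of the 20 fits that left out an array, Eln in 11 and Col5a2 in 8.

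Angptl4, a secreted inhibitor of lipoprotein lipase that glucocorticoids induce, was the 1 lower gene among 24 measured glucocorticoid and stress genes, whose median was -0.22, and 0 were higher. Among all genes 0.234% were lower and 0.226% higher. It had 119 to 184 units in C3H allergen lungs, 107 to 385 in C3H PBS lungs, 215 to 482 in AJ allergen lungs and 91.6 to 186 in AJ PBS lungs. Its interaction was -1.41 ± 0.33 (limma adjusted p = 0.0379), and a second, dim probe set gave 0.03 ± 0.16.

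Clock genes lay on both sides of 0. In the circadian clock, Arntl (BMAL1) and its partner switch on genes through the E-box motif, Nr1d1 (REV-ERB alpha) represses Arntl through the RORE motif, and Dbp switches on its targets through the D-box motif. Of 17 measured clock genes 2 were higher (Dbp and Nr1d1), 1 was lower (Arntl), and the median was 0.05. Over all genes 0.226% were higher and 0.234% lower. With allergen, Tef fell and none rose in C3H lungs, where 1.15% of all genes fell. In AJ lungs 4 of the 17 rose (Arntl, Npas2, Cry1 and Nfil3), where 4.56% of all genes rose. Another 5 fell there (Nr1d1, Nr1d2, Dbp, Tef and Hlf), where 3.28% of all genes fell. The labels give the hours after aspiration and no clock time.

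Dbp read 228, 136, 173, 168 and 330 units in C3H allergen lungs, against 377, 298, 326, 417 and 225 in C3H PBS lungs. In AJ allergen lungs it read 43.7, 98.6, 90.4, 68.8 and 59.6 units, against 432, 631, 354, 414 and 524 in AJ PBS lungs. The C3H groups overlapped, and the 5 AJ allergen lungs were the lowest of all 20. The allergen difference was -0.66 ± 0.21 in C3H lungs (SE, n = 5 each; limma adjusted p = 0.0764) and -2.48 ± 0.21 in AJ lungs. The interaction was 1.82 ± 0.30 (adjusted p = 0.00144), past the threshold in all 32 alternatives run, and a second probe set gave 1.99 ± 0.33.

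Nr1d1 read 382, 344, 270, 303 and 497 units in C3H allergen lungs, against 568, 422, 492, 477 and 441 in C3H PBS lungs. It read 64.1, 134, 159, 170 and 88.3 units in AJ allergen lungs, against 450, 582, 539, 745 and 346 in AJ PBS lungs. As with Dbp, the AJ allergen lungs were the lowest and the C3H groups overlapped. The interaction of Nr1d1 was 1.58 ± 0.31 (limma adjusted p = 0.0101), and with the muscle and adipose levels as covariates it was 1.45 ± 0.33 (adjusted p = 0.0738).

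Arntl ran the other way, with 40.3, 67.7, 44.4, 47.5 and 62.5 units in C3H allergen lungs, against 41.9, 45.8, 57.4, 44.4 and 78.6 in C3H PBS lungs. It had 131, 96.7, 118, 119 and 138 units in AJ allergen lungs, against 61.3, 47.3, 73.5, 59.9 and 44.5 in AJ PBS lungs. The AJ allergen lungs were above every other lung, and the interaction was -0.92 ± 0.21 (limma adjusted p = 0.0379). Arntl passed in 11 of the 20 fits that left out an array. It did not pass with quantile normalization, with 1 added or on the 24 h arrays alone.

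Klf15, a zinc finger factor of glucocorticoid and nutrient responses whose level cycles with the clock, had 67.9 to 89.2 units in C3H allergen lungs, 73.3 to 116 in C3H PBS lungs, 21.3 to 88.1 in AJ allergen lungs and 121 to 172 in AJ PBS lungs. Its interaction was 1.09 ± 0.26 (limma adjusted p = 0.0414), which passed in 7 of the 20 fits without an array.

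Since clock factors act at promoters, the windows from 250 bases before to 50 bases after the gene start were searched on both strands for CACGTG (E-box), AGGTCA (the core of the RORE) and TTATGTAA (D-box). RefSeq sequences of build GRCm38.p6 matched 44 of the 57 genes, with 49 promoters. CACGTG stood in the promoters of 2 of the genes, Klf15 and Npl, and in 7.15% of 32851 promoters. AGGTCA stood in 8 of the 49 promoters, Arntl among them, and in 16.3% of all promoters. TTATGTAA stood in 1 of the 49, that of Ces1g, and in 0.938% of all. The 3 promoters below were picked by hand as examples, 1 for each motif, with the matches in capitals. Npl, Bpifb1, Chchd10, Fh1, Ms4a8a, Ndufb10, Ndufb2 and Rassf1 also hold a match and are not shown. The choice therefore says nothing about the 57 genes as a set. The Klf15 window (GRCm38.p6, chr6:90462326-90462625, plus strand) holds CACGTG 3 times, at 228, 172 and 3 bases before the start, and 0.088% of all promoters hold it 3 times or more. The Ces1g window (chr8:93337160-93337459, minus strand) holds TTATGTAA at 232 bases before the start, and the Arntl window (chr7:113207261-113207560, plus strand) holds AGGTCA from base 32 after the start.
Klf15 promoter: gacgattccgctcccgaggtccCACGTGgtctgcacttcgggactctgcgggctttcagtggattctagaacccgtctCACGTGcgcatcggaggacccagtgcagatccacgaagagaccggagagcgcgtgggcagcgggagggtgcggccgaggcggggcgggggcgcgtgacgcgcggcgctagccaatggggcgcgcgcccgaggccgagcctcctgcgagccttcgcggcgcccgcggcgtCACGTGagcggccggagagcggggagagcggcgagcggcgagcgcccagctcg
Ces1g promoter: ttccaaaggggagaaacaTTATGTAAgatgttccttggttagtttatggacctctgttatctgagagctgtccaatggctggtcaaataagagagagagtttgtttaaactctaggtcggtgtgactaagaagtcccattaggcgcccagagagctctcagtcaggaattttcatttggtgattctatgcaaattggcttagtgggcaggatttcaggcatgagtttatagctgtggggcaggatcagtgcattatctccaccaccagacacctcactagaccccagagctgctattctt
Arntl promoter: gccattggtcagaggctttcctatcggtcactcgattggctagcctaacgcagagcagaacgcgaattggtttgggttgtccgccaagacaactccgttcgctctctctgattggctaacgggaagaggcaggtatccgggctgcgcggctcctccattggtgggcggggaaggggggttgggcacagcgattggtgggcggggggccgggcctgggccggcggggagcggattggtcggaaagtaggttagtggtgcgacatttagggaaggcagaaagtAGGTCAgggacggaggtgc
These matches describe letters in these windows. The windows of Dbp and Nr1d1 held no CACGTG.

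Ces1g, a carboxylesterase of a cluster of closely related genes that cleave esters of drugs and lipids, read 35.0, 11.3, 42.0, 31.8 and 32.1 units in C3H allergen lungs, against 43.5, 53.3, 37.9, 51.4 and 63.1 in C3H PBS lungs. It read 16.7, 16.1, 14.2, 17.7 and 17.6 units in AJ allergen lungs, against 136, 123, 81.6, 147 and 136 in AJ PBS lungs. The AJ groups were far apart and the C3H groups overlapped by 1 allergen lung. Ces1g fell in both strains, with differences of -0.54 ± 0.15 in C3H lungs (SE, n = 5 each; limma adjusted p = 0.0401) and -2.09 ± 0.15 in AJ lungs. The interaction was 1.56 ± 0.21 (adjusted p = 7.75e-05). With PBS the C3H minus AJ difference was -1.09 ± 0.15, so the strains started from different levels.

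Gsta2, a glutathione transferase with the near-identical copy Gsta1, had 63.4 to 159 units in C3H allergen lungs, 128 to 207 in C3H PBS lungs, 32.9 to 57.5 in AJ allergen lungs and 122 to 229 in AJ PBS lungs. Its interaction was 1.10 ± 0.24 (limma adjusted p = 0.0269). Ephx1, microsomal epoxide hydrolase, had 447 to 692 units in C3H allergen lungs, 700 to 910 in C3H PBS lungs, 323 to 366 in AJ allergen lungs and 665 to 901 in AJ PBS lungs, and it fell in both strains. Its interaction was 0.72 ± 0.17 (adjusted p = 0.0379). Ephx1 was the 1 higher gene among 30 measured oxidative stress and detoxification genes, whose median was 0.15, where 0.226% of all genes were higher. With allergen, none of the 30 rose and 1 fell in C3H lungs, where 1.15% of all genes fell. In AJ lungs 2 rose (Hmox1 and Sod2) and 10 fell, where 4.56% of all genes rose and 3.28% fell.

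Blvrb, biliverdin reductase B, read 179, 147, 156, 67.0 and 111 units in C3H allergen lungs, against 41.5, 90.0, 11.3, 92.7 and 122 in C3H PBS lungs. It read 41.7, 35.9, 39.0, 69.5 and 73.7 units in AJ allergen lungs, against 179, 135, 109, 134 and 222 in AJ PBS lungs. The AJ groups were apart and the C3H groups overlapped, with an interaction of 2.25 ± 0.49 (limma adjusted p = 0.0278). Itih2, a heavy chain of the inter-alpha-trypsin inhibitor that binds hyaluronan, had 47.7 to 76.1 units in C3H allergen lungs, 54.7 to 88.0 in C3H PBS lungs, 10.8 to 33.8 in AJ allergen lungs and 59.8 to 84.5 in AJ PBS lungs. Its interaction was 0.93 ± 0.21 (adjusted p = 0.0366).

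Chchd10, a protein of the mitochondrial intermembrane space, had 1221 to 1882 units in C3H allergen lungs, 1119 to 1496 in C3H PBS lungs, 904 to 1129 in AJ allergen lungs and 1513 to 2212 in AJ PBS lungs, an interaction of 0.98 ± 0.19 (limma adjusted p = 0.0112). Micos13, a subunit of the complex that shapes cristae, had 421 to 647 units in C3H allergen lungs, 346 to 380 in C3H PBS lungs, 307 to 434 in AJ allergen lungs and 399 to 521 in AJ PBS lungs, an interaction of 0.89 ± 0.18 (adjusted p = 0.0112). A second, dim probe set for Micos13 gave 0.1 ± 0.12. The C3H groups were apart for Micos13, and the AJ groups were apart for Chchd10.

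Subunits of respiratory complex I and of ATP synthase passed with Ndufb10 at 1.01 ± 0.22 (limma adjusted p = 0.0269), Ndufb2 at 1.0 ± 0.24 (0.0414) and Atp5o at 0.85 ± 0.18 (0.0209). In the 20 fits that left out an array they passed in 15, 5 and 16 in turn. Of 76 oxidative phosphorylation subunits, a set chosen by symbol after the values were seen, these 3 were higher and none lower, 69 were above 0, and the median was 0.45. Over all genes 0.226% were higher, and the median was -0.04. The share of all genes above 0 was not computed. The largest values of the set were 2.13 for Cox8b, 1.965 for Cox7a1 and 1.19 for Cox6a2, none of them past the threshold. Cox6a2 is also a member of the cardiac and skeletal muscle list. The median allergen difference of the 76 was 0.26 in C3H lungs, with 68 above 0, and -0.15 in AJ lungs, with 64 below 0. Slc25a4, the adenine nucleotide carrier of heart and muscle mitochondria, had an interaction of 0.97 ± 0.23 (adjusted p = 0.0406), and 2 of its 3 other probe sets gave 0.19 and 0.22. Fh1, fumarate hydratase of the citric acid cycle, had one of 0.87 ± 0.20 (adjusted p = 0.0366), and Acat1, mitochondrial acetoacetyl-CoA thiolase, one of 0.70 ± 0.17 (adjusted p = 0.0406). Slc25a4 passed in 4 of the 20 fits that left out an array, Fh1 in 8 and Acat1 in 6.

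In lipid synthesis, Scd1, the desaturase that makes monounsaturated fatty acids, had 2715 to 4679 units in C3H allergen lungs, 2742 to 4250 in C3H PBS lungs, 1880 to 2771 in AJ allergen lungs and 2996 to 5035 in AJ PBS lungs. Its interaction was 0.82 ± 0.20 (limma adjusted p = 0.0471), and Scd1 was the 1 higher gene of 15 measured, whose median was 0.82, where 0.226% of all genes were higher. Scd1 passed in 4 of the 20 fits that left out an array. With allergen, Me1 rose in C3H lungs, where 2.1% of all genes rose. In AJ lungs 8 of the 15 fell, among them Fasn, Acly and Dgat2, where 3.28% of all genes fell, and none was above 0. Acss2, which makes acetyl-CoA from acetate, had an interaction of 0.87 ± 0.20 (adjusted p = 0.0341).

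Most muscle and fat markers also had interactions above 0, and their part in those of the metabolic genes was not otherwise tested. The interaction was above 0 for 29 of 29 cardiac and skeletal muscle genes, with a median of 1.30 and none past the threshold, and for 11 of 12 adipose genes, with a median of 1.04 and none past the threshold. The median allergen difference of the muscle genes was -0.00 in C3H lungs and -1.36 in AJ lungs. In AJ lungs 10 of them fell, among them Myh6, Myl7 and Tnni3 of heart muscle, where 3.28% of all genes fell. For the adipose genes the medians were -0.19 in C3H lungs and -1.15 in AJ lungs. The adipose list had summed intensities of 654 to 9640 in C3H allergen lungs, 1885 to 7088 in C3H PBS lungs, 820 to 5325 in AJ allergen lungs and 3326 to 14074 in AJ PBS lungs, with no value at 0. With both levels as covariates the interaction was 0.80 ± 0.20 for Chchd10 (limma adjusted p = 0.125), 0.74 ± 0.18 for Micos13 (0.125), 0.72 ± 0.21 for Ndufb10 (0.266), 0.61 ± 0.19 for Slc25a4 (0.297) and 0.58 ± 0.19 for Scd1 (0.321), so these calls ended under it.

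**Figure D3:**
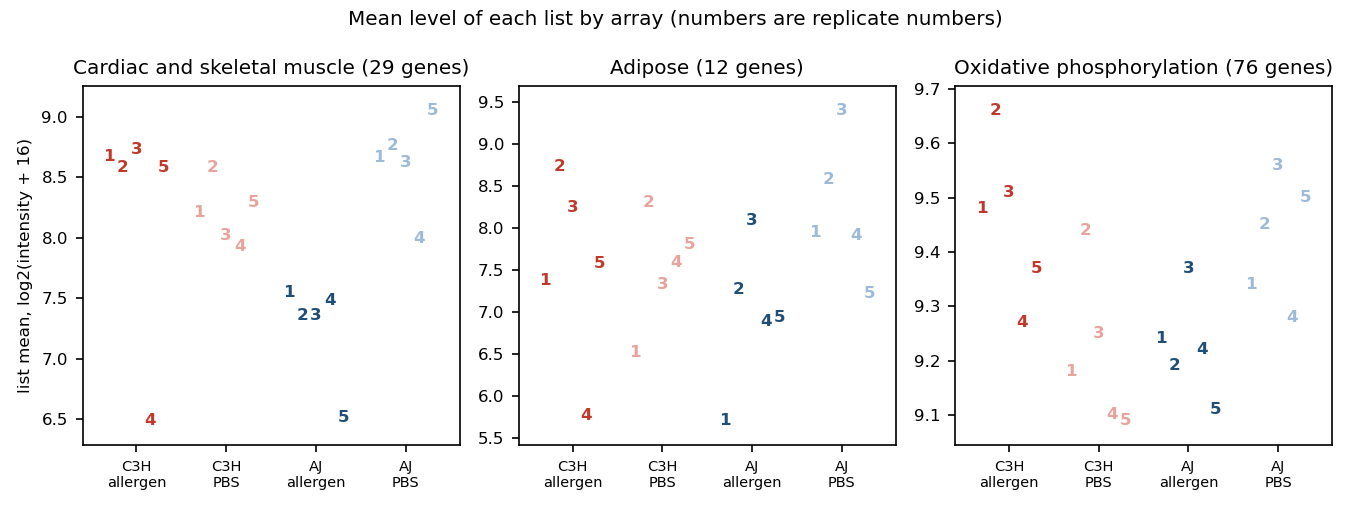
Mean log2(intensity + 16) of the cardiac and skeletal muscle list (29 genes), the adipose list (12 genes) and the oxidative phosphorylation subunits (76 genes) in each 24 h array of the C3H allergen, C3H PBS, AJ allergen and AJ PBS groups. Each digit is the array's replicate number; C3H allergen replicate 4 lies at 6.49 in the muscle list and the AJ allergen arrays lie at 7.55 or below, under all C3H PBS and AJ PBS arrays.

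A few genes differed through C3H lungs. Rassf1, a tumour suppressor that binds microtubules, read 25.1, 30.7, 36.7, 83.6 and 46.4 units in C3H allergen lungs, against 243, 215, 305, 158 and 211 in C3H PBS lungs. It read 249, 71.5, 116, 252 and 211 units in AJ allergen lungs, against 235, 157, 99.1, 142 and 150 in AJ PBS lungs. The C3H groups did not overlap, and the AJ groups did. The allergen difference of Rassf1 was -2.05 ± 0.28 in C3H lungs (SE, n = 5 each; limma adjusted p = 8.97e-06) and 0.10 ± 0.28 in AJ lungs, and the interaction was -2.15 ± 0.40 (adjusted p = 0.00924). It was past the threshold in every alternative run except the one with muscle and adipose covariates (-1.96 ± 0.43, adjusted p = 0.0662).

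Pole, the catalytic subunit of DNA polymerase epsilon, had 12.5 to 42.3 units in C3H allergen lungs, 2.75 to 10.1 in C3H PBS lungs, 2.51 to 7.91 in AJ allergen lungs and 3.0 to 6.97 in AJ PBS lungs, and its interaction was 0.86 ± 0.18 (limma adjusted p = 0.0147). Of 35 measured cell cycle genes none passed in the interaction and the median was 0.31, with 26 above 0. In C3H lungs 9 of the 35 rose with allergen (Mki67, Top2a, Birc5, Kif22, Ube2c, Rrm2, Mcm3, Mcm5 and Tk1), where 2.1% of all genes rose, and in AJ lungs Prc1 rose, where 4.56% did. The difference between those counts was not tested.

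Every 24 h group mean was under 50 units for 5 of the 57 genes, namely Mettl27, Dcaf4, D2hgdh, Ercc6l and Pole, and the sizes of these and other dim genes depended on the constant added before the log. Replacing 16 by 1 or 64 moved the interaction by over 1.5 times for 22 of the 57. With 1 added in place of 16, Mettl27 was 2.68, against 1.64 with 16 and 0.77 with 64. Dcaf4 was 2.63 with 1 and 0.68 with 64, against 1.5 with 16. With 1 and 64 added, the interaction was -2.39 and -0.75 for Guca2a, -2.78 and -1.25 for Slfn4, -2.17 and -0.86 for Clec4e and -2.19 and -0.93 for Gp2. It was -1.61 and -0.70 for Slc7a8, -1.62 and -0.66 for Aldh1a3, 2.04 and 0.94 for Ces1g and 2.10 and 1.12 for Reep6, with no change of sign. Mettl27 was past the threshold in every alternative in which it was measured, and the filter on dim genes removed it. Its allergen and PBS lungs overlapped in both strains, and the strains overlapped with either treatment. Stx18 and Rnf32 passed with interactions of -0.94 ± 0.22 and -1.03 ± 0.24 (limma adjusted p = 0.0394 and 0.0406), but the other probe sets of Stx18 gave -0.12 to 0.30 and that of Rnf32 gave 0.11. The strains were already apart with PBS for Plpp1, a lipid phosphatase, at 1.46 ± 0.13 (C3H minus AJ), and for Fbxo2, a sugar-binding subunit of ubiquitin ligases, at -1.19 ± 0.12. Besides Bpifb1, Col5a2 and Ces1g, the PBS lungs of the strains also did not overlap for Slfn4, higher in C3H. The same held for Reep6, Klf15, Chchd10, Micos13 and Ercc6l, lower in C3H. For Slfn4, Klf15, Micos13 and Ercc6l the allergen lungs of the strains overlapped. The median C3H minus AJ difference with PBS was -0.33 for the 28 higher genes and 0.16 for the 29 lower genes.

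List medians ran from -0.54 for neutrophil markers to 1.30 for cardiac and skeletal muscle, against -0.04 for all genes. None of 33 acute phase genes passed (median -0.29), nor any of 32 interferon genes (0.01), 19 complement genes (-0.25), 11 genes of MHC class II presentation (0.16), 8 eosinophil genes (-0.35), 13 mast cell and basophil genes (-0.28), 23 T and NK cell genes (-0.24) or 13 B and plasma cell genes (-0.23). Smooth muscle (14 genes, 0.34), alveolar epithelium (15, 0.16), endothelium (22, -0.03), ciliated cells (8, -0.03) and erythroid cells (6, -0.09) also had 0 members past the threshold.

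**Figure D4:**
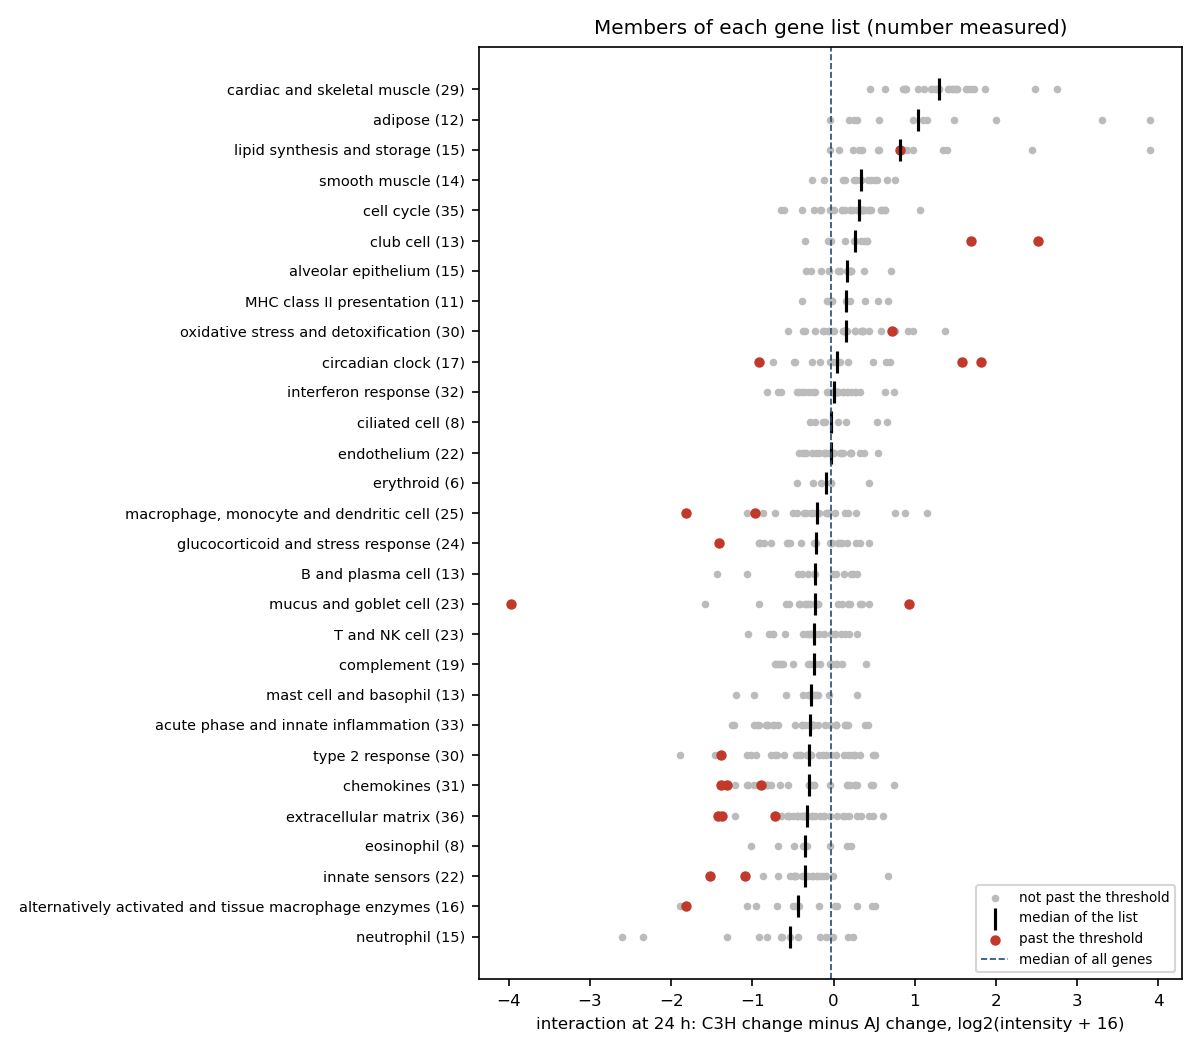
Interaction at 24 h (C3H change minus AJ change, log2(intensity + 16)) of every measured member of 29 gene lists, ordered by median from high to low. Grey points did not pass the threshold, red points did, black bars are list medians and the dashed line is the median of all genes at -0.04; the medians run from 1.30 for cardiac and skeletal muscle to -0.54 for neutrophil markers.

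The same interaction can be taken at 6 h on the other 20 arrays, which share no array with the 24 h groups. It passed for 57 genes at 24 h and 267 genes at 6 h, 0.46% and 2.15% of those tested. The genes past the threshold at both times were Itln1, Ccl4, Clec4d and Tnfrsf1b, all 4 with the same sign, which is 7.02% of the 24 h genes and 1.5% of the 6 h genes. For 37 of the 57 genes the 6 h value had the sign of the 24 h value. The share over all genes was not computed, so this count does not measure agreement between the times. Itln1 had an interaction of -3.97 ± 0.37 at 24 h and -4.66 ± 0.37 at 6 h, and in AJ allergen lungs it read 742 to 908 units at 24 h and 632 to 1113 at 6 h.

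The difference between the interactions, 24 h minus 6 h, passed for 42 genes, 0.339% of those tested, with 19 higher (0.153%) and 23 lower (0.186%). Its median over all genes was -0.10, and centring the arrays on their medians shifted it by 0.14. It passed for 6 of the 57. Cd163 had an interaction of -1.82 ± 0.29 at 24 h and 0.60 ± 0.29 at 6 h, a difference of -2.42 ± 0.40 (limma adjusted p = 0.00317). At 6 h it read 54.0 to 74.2 units in C3H allergen lungs, 16.3 to 38.4 in C3H PBS lungs, 31.1 to 77.5 in AJ allergen lungs and 37.2 to 57.2 in AJ PBS lungs. All AJ allergen lungs at 24 h, with 194 to 402 units, were above those at 6 h. Fst differed by -1.96 ± 0.41 (adjusted p = 0.0263), Slc7a8 by -1.29 ± 0.30 (0.042), Cep19 by -0.98 ± 0.21 (0.0286), Ces1g by 1.29 ± 0.30 (0.0426) and Chchd10 by 1.17 ± 0.27 (0.042).

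Other genes differed between the times without passing at 24 h. Mx1, an interferon-induced antiviral GTPase, had 25.8 to 55.5 units in C3H allergen lungs and 27.7 to 44.2 in AJ allergen lungs at 24 h, which overlapped. At 6 h it had 22.4, 30.7, 32.4, 29.4 and 23.9 units in C3H allergen lungs, against 19.5 to 24.8 in C3H PBS lungs, and 166, 170, 95.0, 85.0 and 72.1 in AJ allergen lungs, against 17.1 to 25.9 in AJ PBS lungs. The AJ allergen lungs at 6 h were thus above the other 3 groups. Its interaction was 0.12 ± 0.22 at 24 h and -1.55 ± 0.22 at 6 h, a difference of 1.67 ± 0.30 (limma adjusted p = 0.00898). The interferon genes Mx2 and Rsad2 differed by 2.18 ± 0.49 (adjusted p = 0.0384) and 1.80 ± 0.43 (0.0494), and Rcan1, an inhibitor of calcineurin, by 1.75 ± 0.27 (0.00225).

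On the negative side, Lox, which cross-links elastin and collagen, differed by -2.36 ± 0.50 (limma adjusted p = 0.0282), and Sox18, an endothelial transcription factor, by -2.16 ± 0.36 (0.00317). Sox18 had 665 to 757 units in C3H allergen lungs, 716 to 1121 in C3H PBS lungs, 766 to 977 in AJ allergen lungs and 1039 to 1199 in AJ PBS lungs at 24 h. At 6 h it had 393 to 850 units in C3H allergen lungs, 631 to 1303 in C3H PBS lungs, 136 to 307 in AJ allergen lungs and 879 to 1138 in AJ PBS lungs, so the AJ allergen lungs at 6 h were the lowest. The heat shock gene Hspa1b, whose near-identical copy Hspa1a its probe sets may not tell apart, differed by -2.13 ± 0.47 (adjusted p = 0.0306). Leaving out 1 of the 24 h arrays at a time gave 24 to 83 genes for the difference between the interactions, and the muscle and adipose covariates gave 26.

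**Figure D5:**
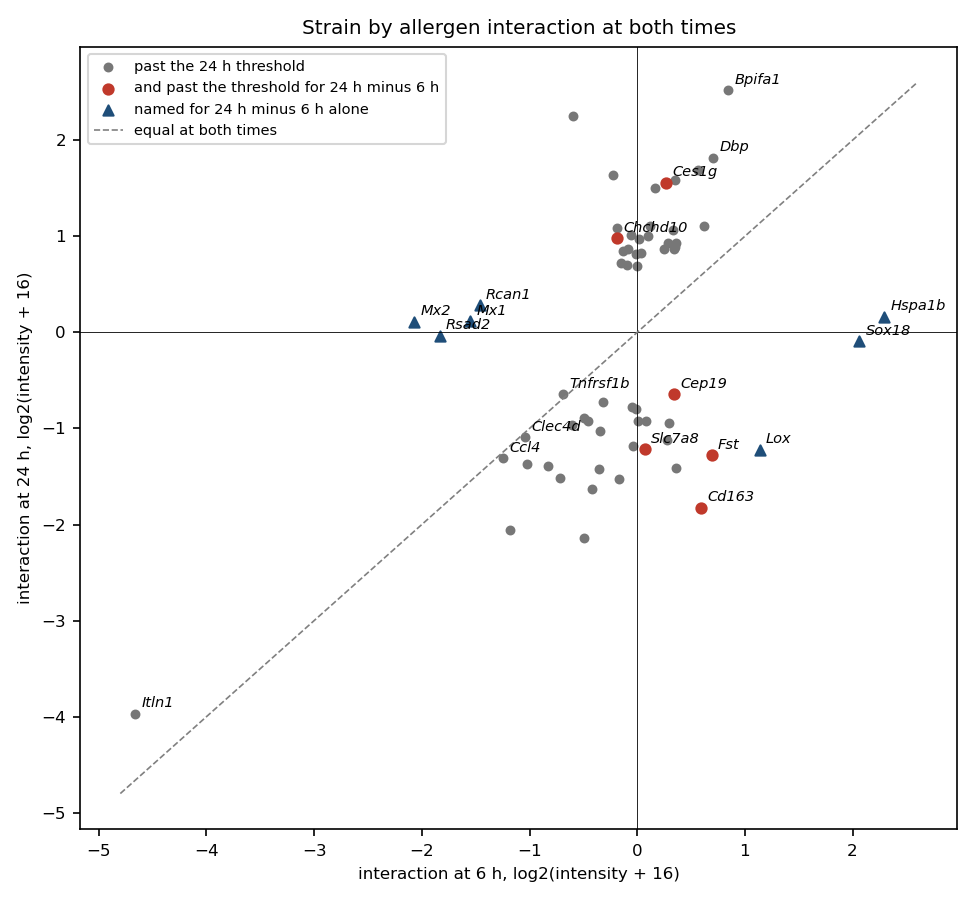
Interaction (C3H change minus AJ change, log2(intensity + 16)) at 24 h (vertical axis) against 6 h (horizontal axis) for the 57 genes past the 24 h threshold and for the genes named for the difference between the times. Each point is a gene and the dashed line marks equal values; Itln1 lies near that line, Cd163 is at -1.82 at 24 h and 0.60 at 6 h, and Mx1 is at 0.12 at 24 h and -1.55 at 6 h.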

How the data were processed

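RNA of mouse lung was measured on 40 Affymetrix-type arrays, 5 per group of strain, treatment and time. The deposited intensities, 1 per probe set and array, were on a linear scale and had been scaled by the authors to a common trimmed mean: with 2% cut from each end it was 150.036 to 150.046 on every array. The software behind them is not given in the sources used here. There were 0 identical pairs of arrays. Of 22690 probe sets, 64 controls, 1555 with no gene symbol and 691 with several were left out, and the 20380 with 1 symbol in GEO's platform annotation gave 12393 genes. For the 4956 genes with several probe sets, the probe set with the highest mean stood for the gene. Scaling at the level of the array leaves each gene's change relative to the other genes of that array, and 13.6% of the values lay below the added constant of 16, which understates the changes of dim genes.

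Values were tested as log2(intensity + 16) with limma 3.58.1 in R 4.3.3: 8 group means over all 40 arrays, contrasts of those means, empirical Bayes variances (32 residual and 4.62 prior degrees of freedom) and Benjamini-Hochberg adjustment over 12393 genes, two-sided at 0.05. In data simulated for the 24 h interaction over 12393 genes, with 200 genes changed and 20 runs, the fit recovered 14.9% of log2 changes sized 0.5, 73.5% of those sized 1, 91.0% at 1.5 and 97.8% at 2, with 5.14% of calls false. The simulated noise was normal and independent for each gene and array. These rates therefore do not cover variation that genes of an array share, such as the muscle and adipose levels, and cannot be carried over to the real calls. Named genes were the 15 largest interactions of each sign past the threshold, in each list up to 4 members past it, a fixed set (Hc, Tlr4, Itln1, Clca1, Muc5ac, Ccl11, Il13, Il5 and Il4), and the 4 largest of each sign for 24 h minus 6 h; further genes past the threshold were named after their values were seen. The members and lists were chosen with earlier results of these data known. Alternatives were quantile normalization, median centring, added constants of 1 and 64, a filter on the dimmest 25% of genes, the mean of a gene's probe sets, trended and robust variances, the 24 h arrays alone, replicate numbers as a block, muscle and adipose levels as covariates, and leaving out each 24 h array. Muscle or adipose alone as a covariate was added after seeing the data. Of 30 pairs of arrays with the same replicate number, 8 had correlated deviations above 0.1 (range -0.204 to 0.324). Pairs with different numbers were not examined, so this cannot show whether replicate numbers pair the arrays.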

Additional observations from a re-analysis of the deposited data

Results flagged for a closer look

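Of 288 groups of 5 arrays (72 named genes in the 4 groups at 24 h), 19 had 1 array far from the other 4 by Dixon's criterion, and chance alone sets apart about 1 in 20 groups. Among allergen lungs these were Ces1g in C3H replicate 2 at 11.3 units (others 31.8 to 42.0), Acat1 in C3H replicate 4 at 446 (561 to 600), D2hgdh in AJ replicate 5 at 15.4 (6.66 to 8.66), Timp1 in AJ replicate 5 at 524 (1178 to 1363), Lox in AJ replicate 5 at 1028 (397 to 478), Ccl8 in AJ replicate 1 at 2242 (1929 to 2004), Acss2 in AJ replicate 3 at 188 (131 to 141) and Stx18 in AJ replicate 2 at 190 (126 to 141). Among C3H PBS lungs they were Itln1 in replicate 4 at 11.3 (1.86 to 3.07), Clca1 in replicate 4 at 85.2 (0.948 to 4.04), Ccl8 in replicate 3 at 334 (207 to 231), Ccl4 in replicate 5 at 86.4 (123 to 129) and Npl in replicate 1 at 40.4 (53.9 to 58.6). Among AJ PBS lungs they were Mettl27 in replicate 2 at 12.1 (44.1 to 61.8), Ercc6l in replicate 1 at 24.9 (12.8 to 15.4), Ccl4 in replicate 5 at 68.5 (104 to 120), Rcan1 in replicate 4 at 171 (235 to 262), Clca1 in replicate 3 at 192 (11.7 to 16) and Hc in replicate 1 at 207 (321 to 351).

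The interaction differed between 24 h and 6 h, by a test of that difference in limma, for 13 named genes. The log2 differences were 1.29 for Ces1g, 1.17 for Chchd10, 2.18 for Mx2, 1.80 for Rsad2, 1.75 for Rcan1 and 1.67 for Mx1. They were -2.42 for Cd163, -1.96 for Fst, -1.29 for Slc7a8, -0.98 for Cep19, -2.36 for Lox, -2.16 for Sox18 and -2.13 for Hspa1b.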

How the results depend on the processing

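The count of 57 genes stayed within 1.5 times under the other normalizations, added constants, filters, variance settings and probe set rules, and on the 24 h arrays alone (38 to 62). The members changed more than the count. Of the 57, 31 passed on the 24 h arrays alone, 36 with 1 added, 42 with quantile normalization and 44 with the mean of probe sets. Median centring kept 45, the filter on dim genes 49, 64 added 52, and trended and robust variances 57. The count was 9 with muscle and adipose covariates, 11 with muscle alone and 21 with adipose alone, the last pair chosen after seeing the data. The 28 higher genes became 16 on the 24 h arrays alone, 5 with both covariates, 6 with muscle and 11 with adipose. The 29 lower genes became 18 with median centring, 18 with 1 added, 4 with both covariates, 5 with muscle and 10 with adipose. Leaving out 1 array gave 19 to 177 genes, 10 to 81 higher and 9 to 96 lower. With the replicate block the count was 68, and 54 of the 57 were among them; the numbers share no known source. The 402 genes of the allergen response in C3H lungs ran from 188 to 620 without 1 array. The 971 genes in AJ lungs became 586 with both covariates and 547 with muscle, and 746 to 989 without 1 array. The 24 h minus 6 h interaction had 42 genes, 26 with both covariates and 24 to 83 without 1 of the 24 h arrays; no 6 h array was left out. The cause of these shifts was not tested. Of the 57 genes, 7 passed in every alternative in which they were measured (Cd163, Ces1g, Dbp, Itln1, Mettl27, Slc7a8 and Timp1). In the 20 fits that left out an array, D2hgdh passed in 5, Cep19, Stx18 and Rnf32 in 6, and Ephx1 and Ms4a8a in 7. Acss2 and Plpp1 passed in 8, Angptl4 and Reep6 in 10, and Itih2 in 11. Blvrb and Ccl4 passed in 12, and Gsta2 and Tnfrsf1b in 13. None of the 57 changed sign, which their selection from the same arrays made likely beforehand. Among named genes not past the threshold, the sign turned for Clca1 (0.99 with 1 added, 0.16 with both covariates, 0.29 with muscle, -0.86 to 0.20 without 1 array), Il4 (0.084 with both covariates, 0.11 with muscle), Il13 (0.051 with both covariates, 0.11 with muscle, -0.27 to 0.052 without 1 array) and Rsad2 (0.0026 with quantile normalization, 0.019 with median centring, -0.15 to 0.14 without 1 array). The added constant moved 22 of the 57 by over 1.5 times, and low signal limits these genes and the type 2 cytokines.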
